A study of Mus musculus with 6 samples.

Results

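The clustered histone genes are the protein-coding genes named Hist1h, Hist2h, Hist3h or Hist4h after the cluster they lie in. Choosing the protein-coding rows of the deposited table by that name gave 55 of its 32179 genes, without the use of any measured value. They comprise 6 linker histone H1 genes, 12 H2A, 15 H2B, 11 H3 and 11 H4 genes. Of the 55 genes, 45 lie in cluster Hist1 on chromosome 13, 7 in Hist2 on chromosome 3, 2 in Hist3 on chromosome 11 and 1, Hist4h4, on chromosome 6. A further 12 protein-coding genes of these names in the GENCODE M21 annotation are not among these 55 and are not analysed here.

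RNA was sequenced from vascular smooth muscle cells (SMC) of mouse skeletal muscle, in 3 control and 3 iSM-G5C-KO libraries, to ask how depletion of the orphan receptor GPRC5C from smooth muscle alters gene expression. All 6 samples came from male C57BL6J mice aged 8 to 24 weeks that were labelled Gprc5c-floxed, had been given tamoxifen and carried the mTmG reporter, which switches on EGFP where Cre has acted. The genotype label is wild type for the control samples and iSM-G5C-KO for the others. No source used here gives the promoter driving Cre or the deleted exons. Cells were depleted of CD31-, CD45- and Ter119-binding cells and sorted as viable EGFP-positive cells, and 5 ng of total RNA entered a stranded total RNA kit. Whether each library stands for its own animal is not stated, and p-values therefore reflect only how far these samples spread, part of which may be technical.

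Histones package DNA: pairs of H2A, H2B, H3 and H4 form the nucleosome core, and H1 binds the linker between cores. Most clustered histone genes are transcribed during S phase, when newly copied DNA has to be packaged, and their mRNAs end not in a poly(A) tail but in a conserved stem-loop bound by the protein SLBP. Protocols that select poly(A) tails therefore lose much of this RNA, whereas total RNA libraries can keep it. Some clustered genes, particularly of H1 and H2B, are also transcribed in cells that do not divide, and can then give polyadenylated transcripts. Smooth muscle cells of the adult vessel wall divide rarely.

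The stem-loop was looked for in the RNA of the members, because it separates this class from other mRNAs. The pattern searched has 16 bases, of which the first and last 6 are the arms and the middle 4 the loop: GG, 3 free bases, TT, 1 free base, T, 1 free base, A, 3 free bases and CC. It was searched on the transcript strand in the first 200 bases after the stop codon of the GENCODE M21 transcripts (GRCm38). Of the 42 members with an annotated 3′ UTR long enough to hold it, 38 had a match, against 108 of 21028 other protein-coding genes (0.514%). The other 13 members have no such annotated stretch. No match was found in Hist1h1a, Hist1h2bc, Hist2h2be or Hist2h3b, which says only that these letters are not in this window. The 38 matches took 8 forms. The commonest was shared by 20 members from every type but H4, and all 10 H4 genes with an annotated stretch had forms of their own. Examples of the forms, chosen from the members described further on, follow with the 16 letters in capitals and 5 flanking bases on each side, read 5′ to 3′ and lying in the 3′ UTR.
Hist1h1c (chr13:23739507-23739532, plus strand): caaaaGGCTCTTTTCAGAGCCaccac
Hist1h1e (chr13:23621777-23621802, minus strand): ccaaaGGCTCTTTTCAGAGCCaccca
Hist1h4d (chr13:23581945-23581970, plus strand): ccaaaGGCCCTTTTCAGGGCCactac
Hist2h4 (chr3:96262934-96262959, minus strand): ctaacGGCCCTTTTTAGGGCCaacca
Hist1h4a (chr13:23760795-23760820, minus strand): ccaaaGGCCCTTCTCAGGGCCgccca
Hist1h3e (chr13:23561898-23561923, minus strand): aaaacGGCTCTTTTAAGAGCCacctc
Hist2h2ac (chr3:96220413-96220438, minus strand): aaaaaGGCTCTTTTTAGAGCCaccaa
The arms of Hist1h1c and Hist1h1e are the same. The H4 genes Hist1h4d, Hist2h4 and Hist1h4a share arms with each other that differ from those of the H1 genes, and differ among themselves within the loop.

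The libraries held 2030819 to 2216011 normalised counts in total, from an estimated 1478541 to 2933171 reads, with the library numbers 1, 2 and 3 in falling order of depth in both groups. Normalised counts are here the deposited values, whose spacing fits read counts divided by 1 factor per library and rounded. The estimated reads and the order of depth rest on that reading. Control library 3 stood apart in having 29707 genes above 0, of which 7733 were at a value of 1, against 20481 to 21179 genes above 0 in the others, and what set it apart was not tested. Gprc5c was lower in every KO library, with normalised counts of 428, 532 and 497 in the control libraries 1, 2 and 3, and 328, 305 and 360 in the corresponding KO libraries. The smooth muscle marker Myh11, smooth muscle myosin heavy chain, lay between 3883 and 4940 in all libraries, and the lowest value was that of KO library 2. The 10 smooth muscle markers summed to 9574 in KO library 2 and to 10797 to 11565 in the others. Leukocyte markers summed to 99 in control library 2 and 105 in KO library 2, against 339 to 541 in the other 4 libraries.

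Clustered histone RNA was a small share of these libraries. Summed over all 55 members, normalised counts were 614, 782 and 670 in the control libraries 1, 2 and 3, and 576, 1029 and 830 in the corresponding KO libraries. The lowest and the highest sums were both KO libraries, so the groups overlapped. In these bulk samples, fewer cells that carry a transcript and less of it per cell cannot be told apart. Controls had a mean sum of 688.7 ± 85.5 and KO libraries one of 811.7 ± 227 (SD, n = 3 each), a ratio of 1.18, and without KO library 2 the ratio was 1.02. 

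Most members were read at very low levels, and 29 of the 55 were at or below 10 in every library. A mean of at least 10 over all libraries, the limit for the test over all genes, was reached by 18 members. These were 4 of the 6 H1 genes, 3 of 12 H2A, 4 of 15 H2B, 1 of 11 H3 and 6 of 11 H4 genes, so the 37 members under the limit included nearly all H3 genes. Hist2h2ab and Hist2h2bb, the latter at a mean of 11.8, were the nearest above the limit and Hist1h3f, at 7.67, the nearest under it. The 18 tested members summed to 539, 722 and 615 across controls and 530, 775 and 751 across KO libraries, where KO libraries 2 and 3 lay close together. The 37 lower members summed to 75, 60 and 55 across controls and 46, 254 and 79 across KO libraries. KO library 2 alone stood out there, 3.22 times above the next highest library, and the other 5 libraries lay between 46 and 79. The ratio of group means for these 37 was 1.99 with all libraries and 0.987 without KO library 2.

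**Figure D1:**
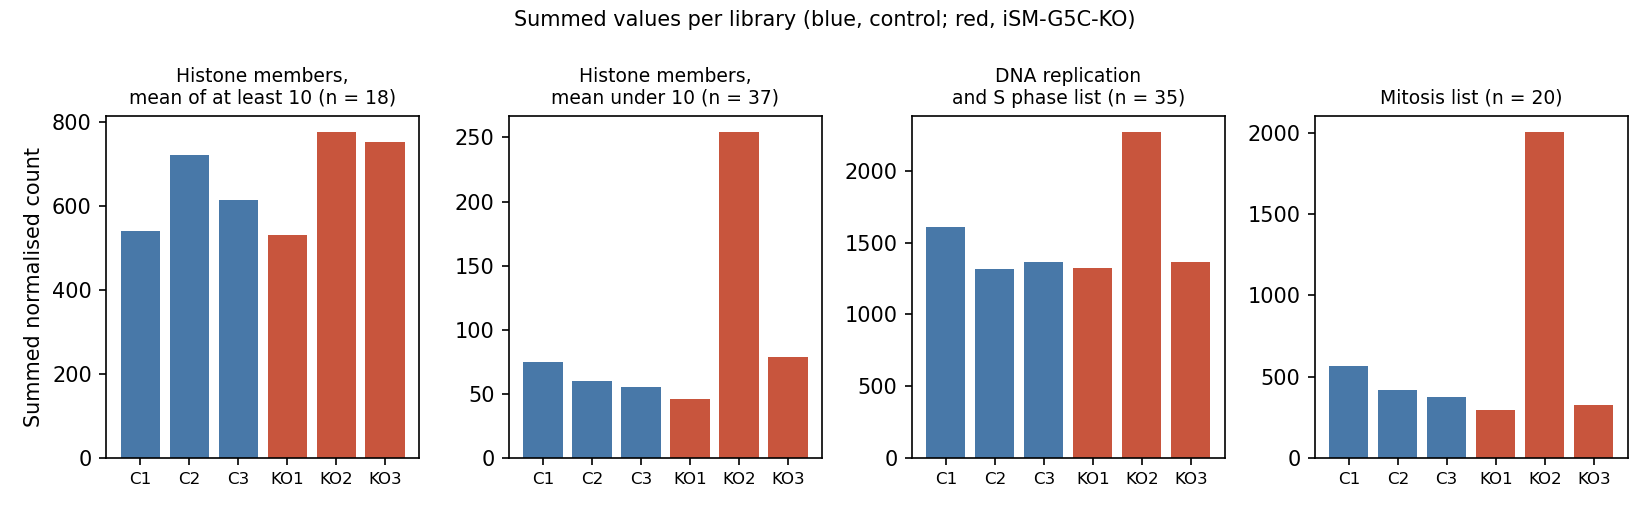
Summed normalised counts (vertical axis, from 0) in each of the 6 libraries (horizontal axis; blue bars, control; red bars, iSM-G5C-KO) for the 18 histone genes with a mean of at least 10, the 37 with a lower mean, and the lists of DNA replication and mitosis genes. In the 37 lower histone genes and in the mitosis list KO library 2 stands far above the other 5 libraries, while in the 18 higher histone genes it lies beside KO library 3.

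No member passed the test. With limma on log2(value + 1), 0 of the 18 tested members had an adjusted p under 0.05, against 0.0% of the 12735 genes tested, and 0 had an unadjusted p under 0.05, against 1.81% of all genes. Every member had an adjusted p of 0.999. The libraries of the same number in both groups deviated together over genes. The pairing by number was read from these same values and not from a label. Library numbers also follow the estimated depth in both groups, and the part of depth in this was not tested. With the replicate number as a block 0 members again passed after adjustment, against 0.00785% of all genes. Of the members, 2 had an unadjusted p under 0.05 in that fit, against 10.2% of all genes. Those 2 were Hist1h1e and Hist2h2be. The values of the groups did not separate for any member: 0 of 18 tested members and 0 of all 55 had groups without overlap, against 4.91% of genes tested and 3.61% of genes listed. The median log2 difference, KO minus control, was 0.13 over the 18 tested members, of which 12 were higher and 6 lower in KO means, against 50.2% of all genes tested that were higher, beside 0.00 over all genes tested. Without KO library 2 it was -0.0038, with 9 members higher and 9 lower.

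The 2 members with the most counts, not scaled for gene length, were linker histone genes. Hist1h1c (ENSMUSG00000036181, chromosome 13, 23738808 to 23740367, plus strand) had the highest counts, at 116, 166 and 138 across controls and 135, 143 and 154 across KO libraries. The KO values all fell within the control range, and the log2 difference was 0.05 with a standard error of 0.16 and a 95% interval from -0.32 to 0.42 (limma, adjusted p = 0.999). Hist1h1e (ENSMUSG00000051627, chromosome 13, 23620629 to 23622558, minus strand), another linker histone, was at 56, 105 and 110 across controls and 66, 128 and 143 across KO libraries. Both libraries numbered 1 were low, and within each number the KO library was the higher. Its log2 difference was 0.30 with a standard error of 0.36 without the block and 0.12 with it (limma with the block, unadjusted p = 0.0387, adjusted p = 0.456). Its exons overlap 496 bp of Hist1h2be on the same strand, so part of its reads cannot be assigned to either gene alone.

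Other linker histone genes followed KO library 2. Hist1h1a (ENSMUSG00000049539) was at 30, 19 and 12 across controls and 12, 52 and 20 across KO libraries. Hist1h1d (ENSMUSG00000052565) was at 5, 18 and 16 across controls and 8, 50 and 15 across KO libraries. Hist1h1b (ENSMUSG00000058773), which was under the limit for the test and is named after its values were seen, was at 5, 4 and 0 across controls and 2, 27 and 3 across KO libraries. In all 3 genes the highest value was that of KO library 2 and the other KO libraries lay within the control range. The log2 differences of Hist1h1a and Hist1h1d were 0.28 and 0.64 with standard errors of 0.56 and 0.72, and without KO library 2 they were -0.28 and -0.055, the opposite sign. Hist1h1t, a linker histone known from the testis and named likewise, was at 0 or 1 in 5 libraries and at 5 in KO library 2. All 6 H1 genes had KO means above the control means on the log2 scale, and 4 still did without KO library 2.

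The promoters of 4 H1 genes are shown because Hist1h1a, Hist1h1b and Hist1h1d shared the high value of KO library 2 and Hist1h1c did not. Each runs from 250 bases before to 50 after the start annotated by RefSeq (GRCm38.p6), 5′ to 3′ on the gene's strand. Capitals mark exact matches of 3 motifs on either strand. These are TATAAA, a form of the TATA box, CCAAT, bound by the factor NF-Y, and AAACACA, a box known from H1 promoters. An ATTTGCAT octamer, known from H2B promoters, was searched as well. Matches of these motifs did not overlap in the 4 sequences.
Hist1h1a (chr13:23763418-23763717, plus strand): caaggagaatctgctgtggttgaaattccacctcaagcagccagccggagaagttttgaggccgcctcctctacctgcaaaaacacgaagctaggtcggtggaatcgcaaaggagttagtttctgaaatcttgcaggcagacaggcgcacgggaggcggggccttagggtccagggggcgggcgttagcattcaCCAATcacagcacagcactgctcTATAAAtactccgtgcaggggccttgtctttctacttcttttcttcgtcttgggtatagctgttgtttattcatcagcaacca
Hist1h1b (chr13:21780576-21780875, minus strand): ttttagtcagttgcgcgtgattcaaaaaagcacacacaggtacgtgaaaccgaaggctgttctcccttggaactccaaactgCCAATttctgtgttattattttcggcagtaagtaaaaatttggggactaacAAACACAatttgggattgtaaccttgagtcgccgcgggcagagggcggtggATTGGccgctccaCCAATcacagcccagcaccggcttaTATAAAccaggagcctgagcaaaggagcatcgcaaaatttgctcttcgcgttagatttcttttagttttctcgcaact
Hist1h1d (chr13:23554782-23555081, plus strand): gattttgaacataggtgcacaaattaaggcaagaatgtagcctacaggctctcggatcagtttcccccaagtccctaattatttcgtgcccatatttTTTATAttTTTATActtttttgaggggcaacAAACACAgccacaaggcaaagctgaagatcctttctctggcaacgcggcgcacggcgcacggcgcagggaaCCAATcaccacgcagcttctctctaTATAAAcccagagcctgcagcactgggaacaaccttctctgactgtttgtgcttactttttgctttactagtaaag
Hist1h1c (chr13:23738557-23738856, plus strand): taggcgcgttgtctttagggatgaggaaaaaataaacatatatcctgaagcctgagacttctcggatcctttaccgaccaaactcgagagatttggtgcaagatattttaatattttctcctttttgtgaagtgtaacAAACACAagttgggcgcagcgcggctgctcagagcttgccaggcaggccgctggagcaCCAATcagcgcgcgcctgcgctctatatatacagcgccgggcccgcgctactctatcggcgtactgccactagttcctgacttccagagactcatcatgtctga
CCAAT was present in all 4, and AAACACA in all but Hist1h1a. TATAAA was present in Hist1h1a, Hist1h1b and Hist1h1d and not in Hist1h1c, but also in the window of Hist1h1e, whose highest value was that of KO library 3, and not in that of Hist1h1t. The windows of Hist1h1c and Hist1h1t hold the letters TATATA after CCAAT, which the exact search does not count. Absence of TATAAA is thus not absence of a TATA box. These matches describe the letters of the windows and say nothing about the binding of a factor. RefSeq windows of the same 300 bases were matched for 50 members by gene ID or older symbol, and Hist1h2bc, Hist1h3a, Hist1h3f, Hist2h2be and Hist2h4 had none. Each member was counted by its first listed window; Hist1h2be alone had another, and that window held ATTTGCAT where the first did not. AAACACA was found in 5 of 6 H1 windows and in 2 of the other 44, against 7.18% of all 32851 windows. CCAAT was found in 43 of 50 members, against 37.4% of all windows, and the H4 genes were the exception with 3 of 10. TATAAA was found in 29 of 50, against 13.6%, and ATTTGCAT in 6 of 12 H2A, 5 of 13 H2B and 0 other members by their first windows, against 1.74% of all windows. Some H2A and H2B windows overlap on the genome, as those of Hist1h2ae and Hist1h2bg and of Hist1h2ah and Hist1h2bk do. The same match can then be counted for both genes, so these counts are not of separate stretches of DNA.

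Among the H2B genes, which encode a core histone, Hist2h2be (ENSMUSG00000068854, chromosome 3, 96221119 to 96223738, plus strand) had the most counts, though not the highest level per length, and the lowest log2 difference of all tested members. Its values were 74, 65 and 32 across controls and 53, 30 and 28 across KO libraries. Within each library number the KO value was the lower, but the highest KO value exceeded the lowest control value. The means were 57.0 ± 22.1 and 37.0 ± 13.9 (SD, n = 3 each), and the log2 difference was -0.58 with a standard error of 0.37 (limma, adjusted p = 0.999). With the block the standard error was 0.22 (limma, unadjusted p = 0.0256, adjusted p = 0.404). The difference stayed negative without any 1 library, between -0.95 and -0.36. None of the 50-base stretches of its annotated transcript occurs in a transcript of another gene, so its reads are not shared with other H2B genes at that length.

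Hist1h2bc was at 39, 48 and 41 across controls and 45, 50 and 41 across KO libraries, with a 95% interval of the log2 difference from -0.34 to 0.51. Hist2h2bb was at 6, 5 and 12 across controls and 5, 22 and 21 across KO libraries, so that KO libraries 2 and 3 were above all others and KO library 1 was among the lowest. Its log2 difference of 0.83, the largest among tested members, had a standard error of 0.63 (limma, adjusted p = 0.999). The control mean of 7.67 was under the limit of 10, so the gene was tested only through its KO mean of 16. Its rank among tested members therefore depends on the limit. Its value is uncertain, since an antisense gene, Gm20628, overlaps its exon by 381 bp and a long noncoding gene on the same strand, Gm42743, by 226 bp. Of the 11 H2B genes under the limit, the summed values were 26, 11 and 19 across controls and 14, 58 and 25 across KO libraries, again highest in KO library 2.

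Of the H4 genes, which nearly all encode the same core protein, 6 were tested. Hist1h4d had the most counts, not scaled for length, at 31, 45 and 36 across controls and 27, 62 and 66 across KO libraries. Hist2h4 was at 28, 40 and 34 across controls and 22, 51 and 64 across KO libraries. In both genes KO library 1 was the lowest and KO libraries 2 and 3 the highest of all 6, and the log2 differences of 0.37 and 0.30 had standard errors of 0.35 and 0.39. Hist1h4h was at 14, 21 and 15 across controls and 19, 25 and 27 across KO libraries, higher in the KO library of each number, with a log2 difference of 0.49 and a standard error of 0.29. It had the smallest unadjusted p of all members without the block (limma over all genes, unadjusted p = 0.133, adjusted p = 0.999). Hist4h4, the gene that lies outside the larger clusters, went the other way, at 18, 37 and 36 across controls and 17, 23 and 27 across KO libraries. Its log2 difference was -0.38 with a standard error of 0.34. Hist1h4a was at 19, 19 and 9 across controls and 19, 9 and 11 across KO libraries, and Hist1h4c at 18, 25 and 24 against 17, 22 and 27, both with overlapping groups. None of the 6 tested H4 genes was highest in KO library 2. The 5 H4 genes under the limit all were, and they summed to 4, 8 and 6 across controls and 5, 27 and 10 across KO libraries. Over all 11 H4 genes the sum was 219 in KO library 2 and 232 in KO library 3. KO library 3 also had the highest sum of the 10 pericyte markers, 18700 against 10515 to 16157. The 15 skeletal muscle fibre markers summed to 9812 there and to 1805 to 5224 in the others, but 5386 of the 9812 was Ttn alone. Of these 15 markers, 7 were highest in KO library 3 and 7 in control library 3. Between the libraries numbered 3 their median log2 difference was -0.086, with 7 higher and 8 lower in the KO library. The 11 endothelial markers were high in both KO libraries 2 and 3, as Hist1h4d, Hist2h4 and Hist2h2bb were, with sums of 867, 1104 and 1379 across controls and 923, 1732 and 1755 across KO libraries. The part of these cells in the histone values was not tested.

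**Figure D2:**
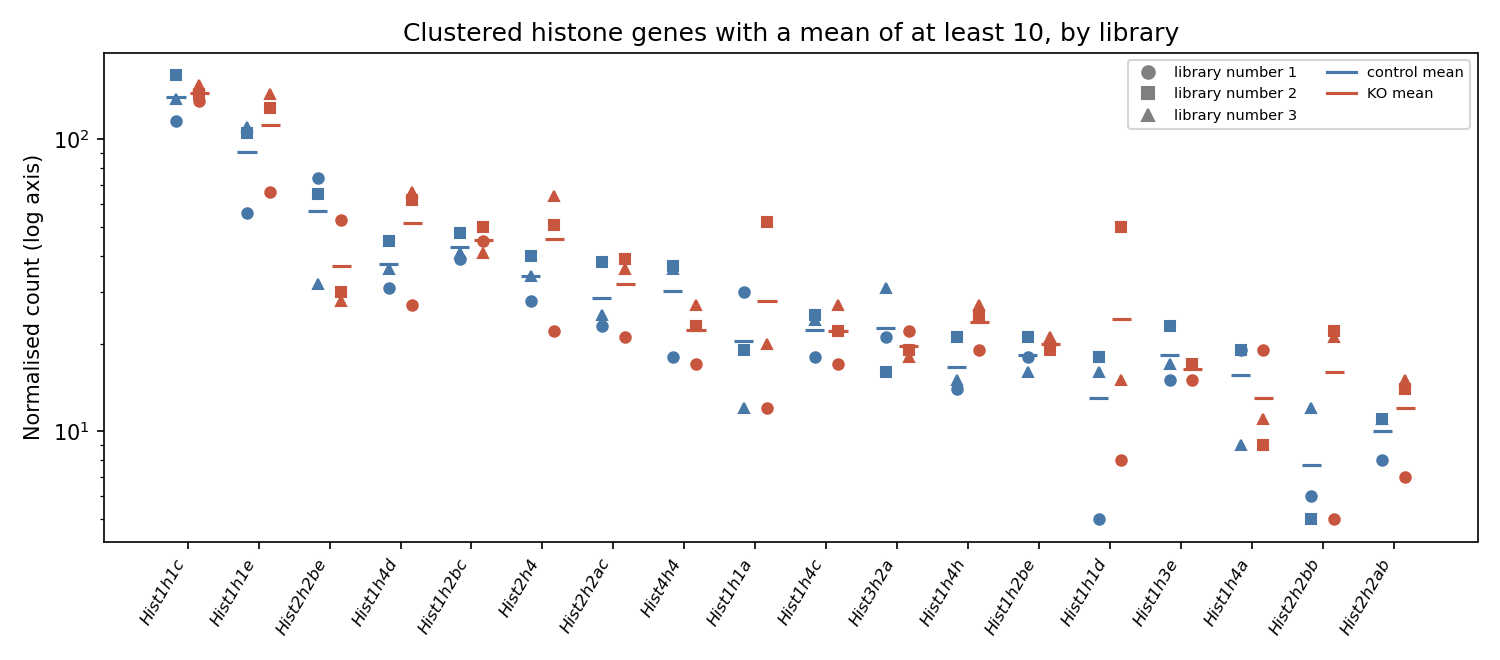
Normalised counts (vertical log axis) of the 18 tested members (horizontal axis, in order of mean) in each library, with control libraries in blue, KO libraries in red, 1 symbol for each library number and horizontal lines at the group means. The groups overlap for all 18 genes; Hist1h1a and Hist1h1d are highest in KO library 2 (52 and 50), and Hist1h1e is low in both libraries numbered 1 (56 and 66).

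The H2A and H3 genes were mostly low. Hist2h2ac, the highest H2A member, was at 23, 38 and 25 across controls and 21, 39 and 36 across KO libraries, and Hist3h2a at 21, 16 and 31 against 22, 19 and 18. The groups overlapped for both, with log2 differences of 0.14 and -0.15 and standard errors of 0.32 and 0.31. The exons of Hist3h2a overlap those of Trim17 on the same strand by 708 bp. Hist1h3e, the 1 tested H3 gene, was at 15, 23 and 17 across controls and 15, 17 and 17 across KO libraries, with a log2 difference of -0.14 and a standard error of 0.29. The other 10 H3 genes summed to 26, 29 and 17 across controls and 17, 76 and 23 across KO libraries, and the 9 H2A genes under the limit to 13, 8 and 13 and to 7, 61 and 18. The lower members of H2A and H3 thus showed the same high KO library 2 as those of H1 and H2B.

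The pattern of KO library 2 was spread over many members. It held the highest value, with no tie, in 32 of the 55 members, against 10.1% of all genes listed. Among the 37 lower members it was the highest in 27, against 5.49% of the genes under the limit, and among the 18 tested members in 5, against 17.0% of genes tested. At 0 in KO library 2 were 11397 of the 19444 genes under the limit. Control library 3 was highest, with no tie, in 52.2% of the 19444. The shares of 10.1% and 5.49% are therefore not those of genes of like level. Of the 37 lower members 35 were higher in KO library 2 than in control library 2, 1 was equal and 1 was lower. Examples, chosen after their values were seen, are the H2A gene Hist1h2ak, at 2, 1 and 4 across controls and 2, 15 and 4 across KO libraries, and the H3 gene Hist1h3c, at 1, 2 and 0 against 1, 10 and 0. The H2A gene Hist1h2ab was at 0 in 5 libraries and at 7 in KO library 2. Only 1 member was at 0 in KO library 2, against 8 to 15 members in each of the other 5 libraries. The median log2 difference between libraries of the same number, over all 55 members, was 0.00 for number 1, 1.32 for number 2 and 0.16 for number 3.

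Between the libraries numbered 2, the median log2 difference was 1.42 over the H1 genes, 1.58 over H2A, 1.32 over H2B, 1.58 over H3 and 0.34 over H4. The type H4 had the most genes above the limit, and its 5 genes under it differed 3.38-fold in their sum between these 2 libraries. Between the libraries numbered 3 it was 0.81 over H4, and between 0.00 and 0.27 over the other types. Of the 37 lower members 34 had a higher KO mean on the log2 scale, against 22.6% of the genes under the limit. Control library 3 was highest, with no tie, in 52.2% of the genes under the limit and in 35.9% of all genes listed. This lowers the share of genes with a higher KO mean, so it is not that of genes of like level. Counting all 55 members, 46 had a higher KO mean on the log2 scale, against 33.5% of all genes listed, and 9 a lower one. Without KO library 2, 29 were higher and 23 lower, and with both libraries numbered 2 left out 24 were higher and 18 lower. The count of 46 therefore rests on KO library 2.

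**Figure D3:**
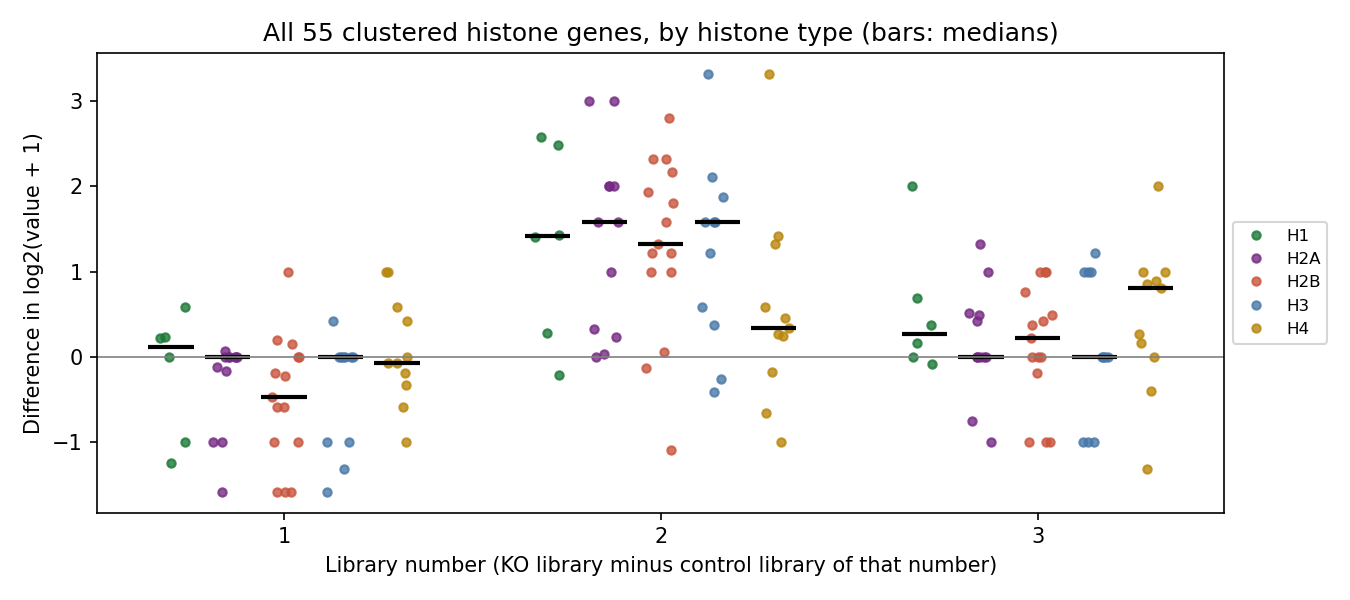
Difference in log2(value + 1), KO library minus control library of the same number (vertical axis), for each of the 55 members (points), by library number (horizontal axis) and histone type (colour), with black bars at the medians. Medians lie between 1.32 and 1.58 in number 2 for H1, H2A, H2B and H3, and at 0.34 for H4, of which 6 of 11 genes were above the limit for the test; the 5 H4 genes under it summed to 8 in control library 2 and 27 in KO library 2.

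Genes of the cell cycle were also highest in KO library 2, and their part in the histone values was not tested. The list of 20 mitosis genes summed to 566, 416 and 372 across controls and 294, 2002 and 328 across KO libraries, and all 20 had their highest value in KO library 2. Among them Mki67, which encodes the proliferation marker Ki-67 and is named for its role with its values known, was at 185, 85 and 80 across controls and 71, 552 and 90 across KO libraries, and Tpx2, a spindle assembly factor, at 34, 32 and 32 against 27, 146 and 36. The list of 35 DNA replication and S-phase genes summed to 1606, 1316 and 1365 across controls and 1321, 2269 and 1368 across KO libraries, with 26 members highest in KO library 2. Pole, a subunit of the leading-strand DNA polymerase, was at 22, 31 and 28 against 33, 66 and 35, and Pcna, the sliding clamp, at 52, 50 and 57 against 61, 75 and 66. These were the only 2 of the 30 tested genes of this list whose groups did not overlap, against 4.91% of genes tested. Without KO library 2 the log2 differences of Pole and Pcna were 0.33 and 0.26. Their sign was fixed in advance, since every KO value lay above every control value. Of the 30 tested genes, 9 were higher and 21 lower without KO library 2. Over these lists 0 of 16 and 0 of 30 tested genes passed with limma, 0 and 0 had an unadjusted p under 0.05, and with the block 0 and 1 did. The KO mean was higher for 16 of 16 and 26 of 30 tested genes, against 50.2% of all genes tested. Some of them reached the limit for the test only through KO library 2, such as Plk1 and Tk1 with control means of 7.67 and 6. These counts therefore depend on the limit. Over all 20 and 35 listed genes, 18 and 29 were higher on the log2 scale, and 2 and 6 lower. For the tested genes the median log2 differences of 0.39 and 0.20 became -0.44 and -0.13 without KO library 2. Control library 1 had the second highest mitosis sum and, with 75, the third highest sum of the 37 lower histone genes, after KO library 3 with 79. The order of the libraries was thus not the same in the lists below KO library 2.

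Genes that make, process or replace clustered histones were examined beside them. Of 28 measured genes of histone mRNA synthesis and 3′ end processing, 14 were higher and 14 lower in KO means, with a median log2 difference of 0.00, and 0 passed with limma, with 0 at an unadjusted p under 0.05 and 1 with the block. Slbp and Npat are named for their roles with their values known. Slbp, the stem-loop binding protein, was at 85, 92 and 86 across controls and 86, 101 and 105 across KO libraries, and Npat, a coactivator of histone gene transcription, at 138, 100 and 114 against 158, 102 and 101. Groups did not overlap for 4 of the 28 genes, 3 higher and 1 lower in KO libraries, against 4.91% of genes tested. Among the higher, Snrpd3 was at 61, 69 and 61 across controls and 72, 71 and 92 across KO libraries, and Snrpb at 146, 159 and 158 against 163, 185 and 182; both encode core proteins of small nuclear ribonucleoproteins. The lower was Sympk, a scaffold of the cleavage complex, which had the smallest p of the list, at 353, 358 and 346 across controls and 284, 307 and 318 across KO libraries, where all KO values were lower (limma, unadjusted p = 0.0749, adjusted p = 0.999). A list of 11 histone variant genes, taken as independent of DNA replication, summed to 1059 to 1080 in controls and 1043 to 1226 in KO libraries. The sum was highest in KO library 2, as were 6 of the 11 genes, against 17.0% of genes tested. Cenpa and H2afx, at 42 and 43 there, were among the 6. Whether each of the 11 is made only outside S phase was not tested. By limma 0 passed, and 0 had an unadjusted p under 0.05 with or without the block. H1f0, a linker histone of cells that do not divide, was at 180, 221 and 208 across controls and 205, 236 and 242 across KO libraries, and H3f3b, a gene of a replacement H3 variant named for its role, at 312, 306 and 337 against 303, 310 and 387. Of 20 tested histone chaperones 13 were higher and 7 lower, with a median log2 difference of 0.03, and 0 passed by limma, with 0 at an unadjusted p under 0.05 and 1 with the block. Chaf1a, a subunit of the chaperone that places histones on newly copied DNA, was at 27, 33 and 49 across controls and 37, 78 and 52 across KO libraries.

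Levels of different genes can be compared only per length. Divided by the length of annotated exons, the mean over controls was 89.7 normalised counts per kb for Hist1h1c, 55.1 for Hist2h2ac, 46.8 for Hist1h1e, 36.9 for Hist1h2bc and 35.5 for Hist1h4h. In KO libraries the means per kb were 92.3, 61.5, 58.2, 39.2 and 50.4 in the same order. Hist1h1c was the highest member per kb in every library. The values of the next members overlapped over libraries, so their order is not settled. In KO library 2 Hist1h1a reached 70.2 per kb, against 40.5 or less in the others. Hist1h1d has an annotated exon of 7425 bp, which makes its level per kb low, at 1.75 in controls and 3.28 in KO libraries.

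**Figure D4:**
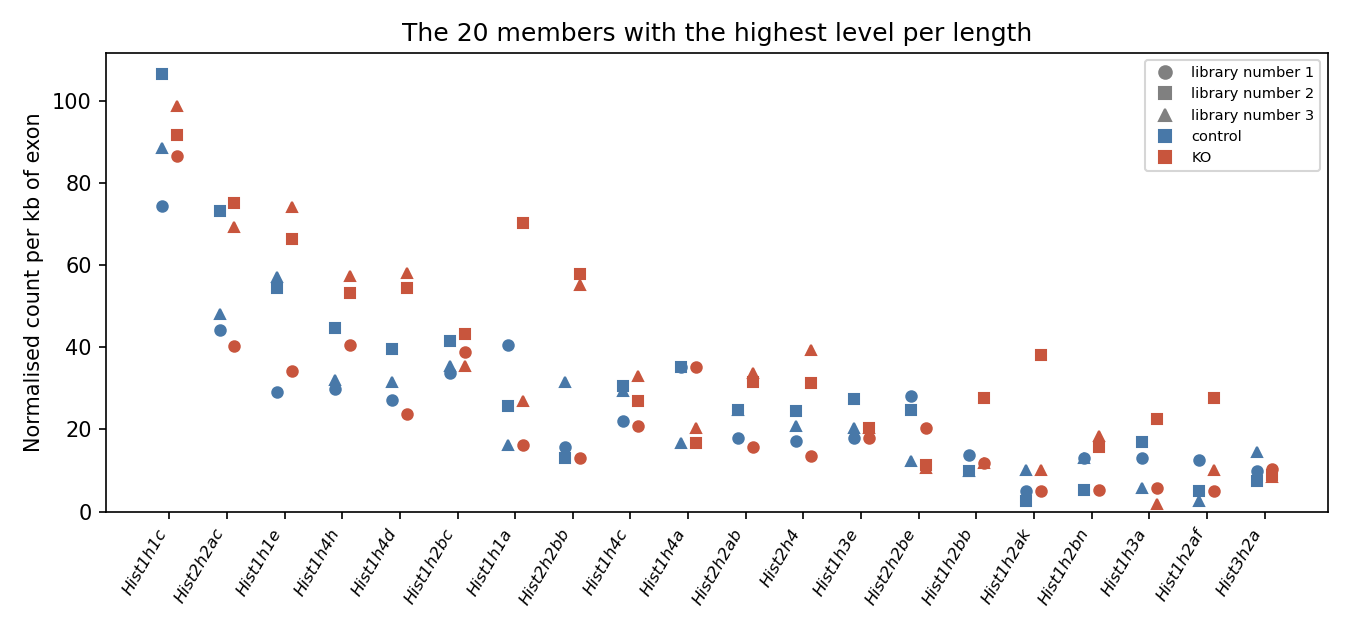
Normalised counts per kb of annotated exon (vertical axis, from 0) for the 20 members with the highest mean per length (horizontal axis), with control libraries in blue, KO libraries in red and 1 symbol for each library number. Hist1h1c is the highest gene in every library, and the next genes overlap.

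Near-identical copies limit the values of single members. Over 20% of the 50-base stretches of the annotated transcripts also occurred in a transcript of another gene in 42 of the 55 members, with a median share of 45.8%, and in 4 members no stretch was shared. Hist1h1a, Hist1h1b and Hist1h1t were among those 4, so the high value of KO library 2 was also present in members without shared stretches. The remaining one, Hist2h2be, did not show it and was at 30 in KO library 2, below every control value. Exons of 17 members overlap those of another annotated gene, on the same or the opposite strand. How reads with several matching positions were counted is not stated, so the values of the single members with shared stretches are uncertain.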

How the data were processed

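Per the labels' protocols, EGFP-positive SMC were sorted from digested muscle and total RNA libraries were made with a stranded low-input kit. Reads were handled with STAR 2.6.1d, featureCounts 1.6.5, Trimmomatic 0.39 and DESeq2 1.18.1, on mm10 or GRCm38.p5, per the submitters' processing notes, which give no order. The values deposited by the authors are entered as a score: whole numbers whose spacing fits read counts divided by 1 factor per library and rounded. That the factor is DESeq2's is inferred from the notes and not stated. The worth of 1 read was estimated from the spacing of low values. Whole reads could not be recovered where 1 read is worth under 1, so no count test was run.

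Groups were compared on log2(value + 1) by limma 3.58.1 (R 4.3.3), with a trend of variance on the mean, 2-sided, on 12735 genes with a mean of at least 10 and Benjamini-Hochberg adjustment at 0.05. It was tested on simulated data. Sums and medians over members are descriptions without a test. Groups came from the sample descriptions. Same-numbered libraries deviated together over genes (correlations of 0.59, 0.31 and 0.44), so the numbers were taken as pairing them; this comes from the data, as no label says what a number marks. Sequences came from GENCODE M21 and RefSeq (GRCm38.p6); all 55 members had the same coordinates in the table and in GENCODE M21. Named members are the 12 with the highest means, the highest of each type and cluster, and the 5 with the smallest p in each direction, and from each list up to 4 genes with the smallest p or its defining markers; other examples are marked in the text. The members, lists and tests were chosen with earlier results of these data known. Alternatives covered pseudocount, filter, scaling, trend, block, weights and left-out libraries.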

Additional observations from a re-analysis of the deposited data

How the results depend on the processing

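No member passed the adjusted threshold under any of 18 other settings, and Hist1h2bc, Hist1h4d, Hist1h4h, Hist2h2bb, Hist2h2be and Hist4h4 kept their direction in all of those in which they were tested. Of these, Hist2h2bb reached the limit for the test only through its higher KO mean. With the replicate number as a block, pairing same-numbered libraries, 1 gene of all tested was called instead of 0; it was 61 in the block fit without the libraries numbered 1, 1 without those numbered 2, and 2 with quality weights. Leaving out 1 library gave 0 to 0. The median log2 difference of tested members was 0.13, was 0.37 with no filter on low values, and lay between -0.0038 and 0.27 with 1 library left out. The 46 members with a higher KO mean became 24 with both libraries numbered 2 left out and 29 to 47 with 1 library left out, fewest without KO library 2. The ratio of summed values was 1.02 to 1.35, and 0.987 to 2.63 for the 37 lower members.

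The log2 differences of 10 of 16 named members changed sign in some setting. In the block fit without the libraries numbered 1, Hist1h1c was -0.028. With those numbered 2 left out, Hist1h1a was -0.28, Hist1h4a 0.13 and Hist1h4c 0.043. With those numbered 3 left out, Hist2h2ac was -0.045 and Hist3h2a 0.15. With quality weights, Hist1h1c was -0.13 and Hist3h2a 0.13. With 1 library left out, the ranges were -0.28 to 0.73 for Hist1h1a, -0.073 to 0.18 for Hist1h1c, -0.055 to 1.20 for Hist1h1d, -0.012 to 0.64 for Hist1h1e, -0.26 to 0.028 for Hist1h3e, -0.18 to 0.13 for Hist1h4c, -0.022 to 0.41 for Hist2h2ac, -0.0029 to 0.75 for Hist2h4 and -0.37 to 0.091 for Hist3h2a. The cause was not tested. Depth limits the lower members: 1 read was worth an estimated 0.76 to 1.40, and 29 of the 37 members under the limit for the test never exceeded 10. None of these 29 is among the 16 tested members named by rule. Hist1h1t, Hist1h2ab and Hist1h3c, given above as examples, belong to the 29.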
